A study of Homo sapiens with 16 samples.

Results

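Gene expression in LNCaP-1F5 cells was measured on Illumina HumanHT-12 bead arrays, and the comparison described here is between 4 of the 16 arrays of the study. These are the arrays of the DHT set whose titles begin with Vehicle, and the 2 arrays titled replicate 2 were set against the 2 titled replicate 1. Each pair holds 1 array titled parental and 1 titled siFoxA1, which were pooled because their levels were alike. The comparison was chosen by values measured on these same arrays: genes known to be induced by androgen followed the replicate number here, and not the hormone or siRNA title. The differences between the 4 arrays are therefore given as a description, and no p-value is reported for a difference between them.

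LNCaP-1F5 is a derivative of LNCaP, a human prostate cancer line grown from a lymph node metastasis, into which a rat glucocorticoid receptor was introduced. Per the labels, cells were either left parental or depleted of FOXA1 with a pool of siRNAs, and both were kept in charcoal-stripped medium, which is low in steroids, for 3 days. They then received hormone for 24 hours, 100 nM of the androgen 5a-dihydrotestosterone (DHT) in the DHT titles and none in the vehicle titles. The labels name no control siRNA for the parental cells and do not say what the vehicle was. The study's design text calls the 2 replicates of a group biological, and the 8 arrays of the DHT set lie on 1 chip, with replicates 1 and 2 alternating in position. All groups therefore share 1 cell line, 1 medium and 1 chip, and the other 4 arrays of the set carry DHT titles.

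The androgen receptor is a transcription factor that is held in the cytoplasm by chaperones until it binds DHT or testosterone. It then enters the nucleus, binds DNA at paired 6-base elements that it shares with the glucocorticoid receptor, and raises or lowers the transcription of its targets. In luminal prostate cells these targets include kallikrein proteases, enzymes of polyamine and lipid synthesis, and regulators that feed back on the receptor. FOXA1 is a forkhead factor that opens chromatin at many of these sites.

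The replicate number separated the 4 vehicle-titled arrays far more than the siRNA title did. Over 9020 genes tested, the 2 arrays of replicate 1 had 58 genes more than 2-fold apart and the 2 of replicate 2 had 83, with no gene more than 4-fold apart in either pair. Between replicate numbers, 509 to 580 genes were more than 2-fold apart and 61 to 88 more than 4-fold. FOXA1 itself, the target of the siRNA, was high on all 4 arrays, at log2 levels of 13.54 and 13.57 in replicate 1 and of 13.61 and 13.68 in replicate 2, parental title first in each pair. The siFoxA1 title thus did not go with a lower FOXA1 level, and these arrays were pooled for that reason. As a description of the levels behind the pooling, and not as support for it, limma called 0 genes (0% called) between the 2 siRNA titles at an adjusted p under 0.05, against 686 at an unadjusted p under 0.05, and median scaling in place of quantile normalization gave 4. On the 4 arrays with DHT titles FOXA1 lay between 12.24 and 12.37, so its level followed the hormone title. Which RNA each array carried was not tested.

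Genes were described as called where the adjusted p of the fit over the 8 arrays of the DHT set was under 0.05. By that measure 614 genes (6.81% called) were higher in replicate 2 of the vehicle titles and 525 (5.82% called) were lower. Of the higher genes, 241 differed by more than 2-fold, 51 by more than 4-fold and 10 by more than 8-fold, and of the lower genes 171, 21 and 1. All 1139 called genes had replicate numbers that did not overlap on the 4 arrays, but so did 4764 of all genes tested (52.8% called by that measure). The number called fell when any 1 of the 4 arrays was left out, which left 1 array for its replicate number. Whether the smaller number of arrays or the array left out accounts for this was not tested.

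**Figure D1:**
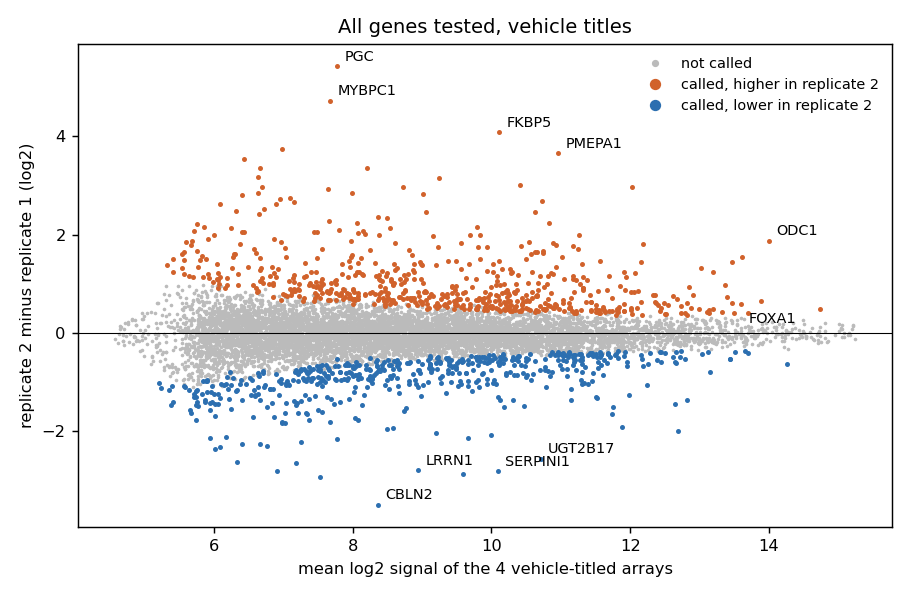
Difference between replicate 2 and replicate 1 of the vehicle titles (log2, vertical axis) against the mean log2 signal of the 4 arrays (horizontal axis), 1 point for each of 9020 genes. Orange points are the 614 genes called higher in replicate 2, blue points the 525 called lower and grey points the rest; FOXA1 lies near 0 at a high level.

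Promoters of 3 genes called higher in replicate 2 are shown because they differ in whether a receptor element lies close to the start. PGC and MYBPC1 had the largest bounds, described below, and KLK2 was a leading member of a list of luminal epithelial genes. Each promoter is the 250 bases before the transcription start in RefSeq on GRCh38.p14, read on the gene's own strand. KLK2 encodes a kallikrein protease of prostatic fluid, MYBPC1 a myosin-binding protein, and PGC the protease precursor progastricsin. Capitals mark matches to the half-site AGAACA or to the relaxed full site GNACANNNNGTNC, in which N is any base. Both were searched on both strands, and a full site may overlap a half-site.
KLK2, chr19:50873189-50873438, plus strand: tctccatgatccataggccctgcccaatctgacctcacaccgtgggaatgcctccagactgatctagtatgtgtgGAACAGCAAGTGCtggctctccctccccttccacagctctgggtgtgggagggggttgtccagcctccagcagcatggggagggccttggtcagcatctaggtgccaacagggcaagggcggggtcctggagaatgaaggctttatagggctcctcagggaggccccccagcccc
MYBPC1, chr12:101594721-101594970, plus strand: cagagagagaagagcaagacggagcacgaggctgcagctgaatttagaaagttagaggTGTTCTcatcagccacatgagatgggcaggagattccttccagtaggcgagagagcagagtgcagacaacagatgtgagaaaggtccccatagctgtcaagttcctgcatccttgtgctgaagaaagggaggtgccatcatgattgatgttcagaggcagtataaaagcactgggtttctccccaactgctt
PGC, chr6:41747398-41747647, minus strand: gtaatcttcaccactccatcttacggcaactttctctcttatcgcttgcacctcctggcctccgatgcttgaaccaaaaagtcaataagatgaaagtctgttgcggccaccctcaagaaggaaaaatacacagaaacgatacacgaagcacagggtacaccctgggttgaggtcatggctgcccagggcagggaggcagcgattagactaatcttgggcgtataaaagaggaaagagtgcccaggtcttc
The KLK2 window held a full-site match that began 175 bases before the start, the MYBPC1 window a half-site that began 192 bases before it, and the PGC window neither. The full-site pattern was found in 1.81% of all 35116 windows of the RefSeq table, in 2.4% of 7496 tested genes with a window, in 3.69% of 515 genes called higher and in 3.29% of 426 called lower. The half-site was found in 12.4%, 10.8%, 9.9% and 11.5% of the same sets. A match is a run of letters in a short window and not a measured binding site.

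Over all genes tested 6.81% were called higher and 5.82% lower, and the list counts below stand against these shares. The androgen-induced genes were the group with the highest count, but the comparison was chosen knowing that such genes followed the replicate number. That rank is therefore a description and no support. Of 55 androgen-induced genes listed, 48 had a probe and 41 were measured above background on 2 or more arrays of the DHT set. Of these 41, 36 were higher in replicate 2, 1 was lower and 4 were not called. Their median difference was 1.62 on the log2 scale, against -0.03 over all genes tested, and it was 1.73 between the parental titles alone and 1.62 between the siFoxA1 titles alone. Of the 41, 11 were undetected in 1 of the replicate numbers, and with these at the bounds described below the median was 1.47. Detection on 2 arrays was enough to be tested, so such members could enter through the replicate number where they were high. The counts may thus be partly set by the filter, and the same holds for undetected members of the lists below. FKBP5, an immunophilin that feeds back on steroid receptors, stood at 7.91 and 8.22 on the arrays of replicate 1 and at 12.15 and 12.14 on those of replicate 2. That is a difference of 4.08 ± 0.16 (SE), or 16.9-fold, and the array titled siFoxA1 matched the array titled parental within each replicate number.

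PGC was not detected on either array of replicate 1 (5.34 and 4.79) and reached 10.55 and 10.42 in replicate 2, at least 24.6-fold higher. MYBPC1, which was not on the list, was also undetected in replicate 1 (5.07 and 5.57) and stood at 10.10 and 9.97 in replicate 2, at least 18-fold higher. Bounds of this kind set the brighter arrays against the detection limit of the dimmer ones. That limit was the lowest signal of any probe detected at p under 0.01, or the gene's own signal where higher. PMEPA1, a membrane protein that dampens TGF-beta signalling and the androgen receptor itself, read 9.35 and 8.92 in replicate 1 and 12.91 and 12.65 in replicate 2. Its difference was 3.65 ± 0.16, and 2 further probes of the gene had the same sign.

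Other genes among the largest increases were of several kinds. SLC45A3, the prostate membrane protein prostein, read 10.84 and 10.23 in replicate 1 and 13.61 and 13.42 in replicate 2, a difference of 2.97 ± 0.17. NCAPD3, a condensin subunit, read 7.65 and 7.69 against 10.68 and 10.98, a difference of 3.16 ± 0.19. For each of these genes the groups were further apart than the 2 arrays within either group. ELL2, an elongation factor of RNA polymerase II, differed by 2.84 ± 0.21, S100P, a calcium-binding protein, by 3.00 ± 0.17, and SOCS2, a suppressor of cytokine signalling, by 2.97 ± 0.18. MICAL1, a flavin monooxygenase that acts on actin, differed by 3.36 ± 0.28 and the tight-junction protein CLDN8 by 2.82 ± 0.22. TUBA3D, an alpha-tubulin, differed by 2.92 ± 0.26, but close copies of the tubulin genes could share its probe. ST6GALNAC1, a sialyltransferase, was also undetected in replicate 1 and detected in replicate 2 (at least 7.93-fold higher). So were RAB3B, a GTPase of secretory vesicles (at least 6.18-fold), and NBL1, a secreted BMP antagonist (at least 5.55-fold). ST6GALNAC1 and NBL1 were detected on no other array of the set, so they passed the detection filter through this group alone.

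**Figure D2:**
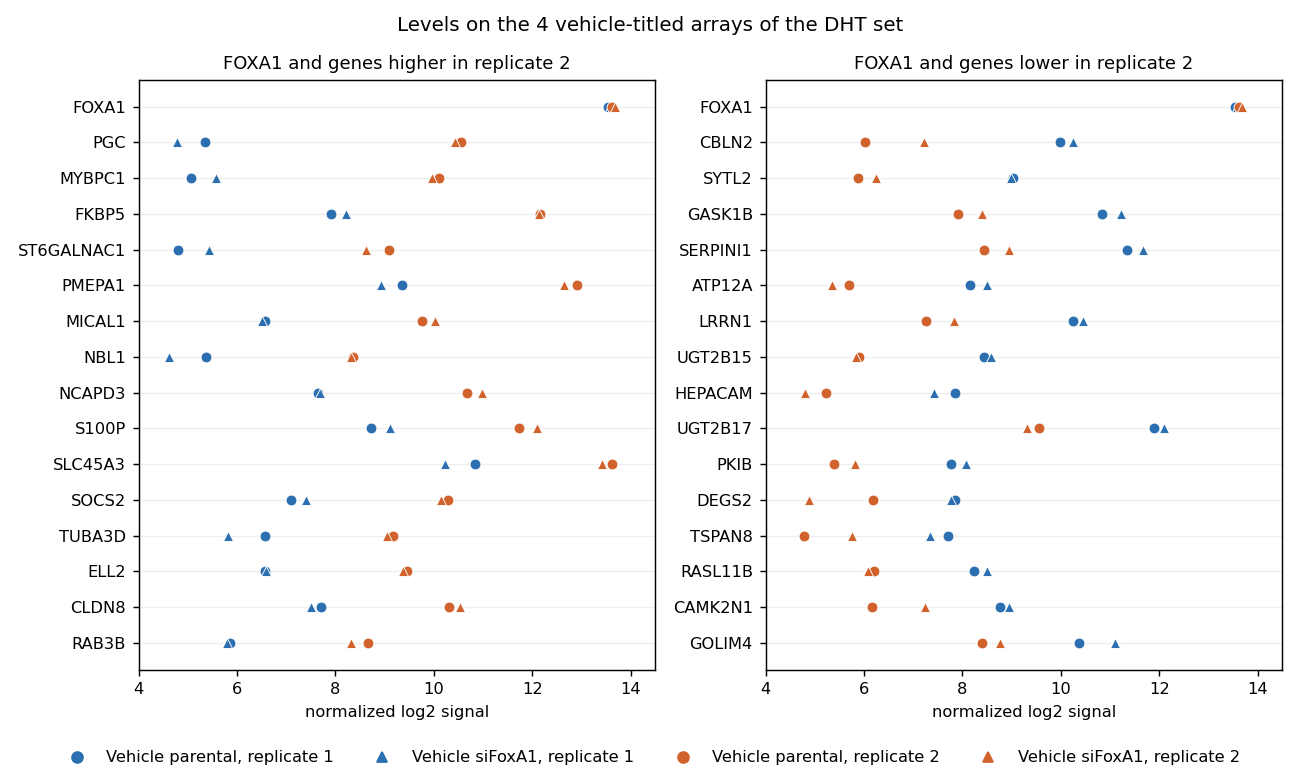
Normalized log2 signal (horizontal axis) on the 4 vehicle-titled arrays for FOXA1 and for the 15 genes named with the largest increases (left) and decreases (right) from replicate 1 to replicate 2. Blue marks replicate 1 and orange replicate 2, circles the parental and triangles the siFoxA1 title; the colours lie far apart in every gene except FOXA1, and the shapes lie closer together than the colours.

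Further members of the androgen-induced list, named after their values were seen, spanned transport, metabolism and signalling. SGK1, a kinase that regulates ion transport, was undetected in replicate 1 and at least 5.02-fold higher in replicate 2. TRPM8, a cation channel that senses cold, was likewise at least 5.1-fold higher, and CAMKK2, a kinase upstream of AMPK, at least 2.67-fold. KLK2, whose promoter is shown above, was undetected in replicate 1 (5.12 and 5.31) and read 8.03 and 8.35 in replicate 2, at least 4.99-fold higher, although near-identical kallikreins may share its probe. ALDH1A3, which makes retinoic acid, was 2.24 higher on the log2 scale and NDRG1, a stress-regulated gene, 2.00 higher. The 4 members not called were LIFR (0.34), STEAP2 (0.24), NNMT (0.08) and MED28 (-0.33). The single lower member was ACP3, prostatic acid phosphatase, at -1.65.

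Genes classically lowered by androgen lay mostly on the other side. Of 17 listed, 12 were measured, of which 9 were lower in replicate 2 and 3 higher, with a median of -1.49. LRRN1, a leucine-rich repeat membrane protein, read 10.24 and 10.45 in replicate 1 and 7.26 and 7.82 in replicate 2, a difference of -2.80 ± 0.17. UGT2B17, which conjugates DHT to glucuronic acid for excretion, read 11.90 and 12.09 against 9.55 and 9.31, a difference of -2.56 ± 0.18. Its relative UGT2B15 read 8.44 and 8.57 in replicate 1 and was undetected in replicate 2, at least 5.46-fold lower. ACKR3, an atypical chemokine receptor, was 12.83 on both arrays of replicate 1 and 11.04 and 10.81 in replicate 2. The 3 higher members were UGT2B28 (1.70), TMEFF2, a transmembrane protein of prostate (1.66), and UGT2B11 (1.58), so the UGT2B family was divided. Probes of these close relatives may cross-hybridize.

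The largest decrease of all tested genes was in CBLN2, a secreted synapse organizer. It read 9.98 and 10.24 in replicate 1 and 6.01 and 7.22 in replicate 2, a difference of -3.50 ± 0.25. SERPINI1, the protease inhibitor neuroserpin, read 11.34 and 11.67 against 8.43 and 8.95, a difference of -2.81 ± 0.17. For CBLN2 the arrays of replicate 2 were 1 log2 unit or more apart, while still clear of replicate 1. SYTL2, an effector of RAB27 in secretion, was lower by a difference of -2.94 ± 0.25, GASK1B, a Golgi-associated protein, by -2.88 ± 0.25 and GOLIM4, a Golgi membrane protein, by -2.15 ± 0.19. CAMK2N1, an inhibitor of a calmodulin-dependent kinase, differed by -2.16 ± 0.23 and DEGS2, an enzyme of ceramide synthesis, by -2.27 ± 0.28. RASL11B, a small GTPase, differed by -2.22 ± 0.31. In replicate 2 CAMK2N1 (6.16 and 7.24) and DEGS2 (6.18 and 4.89) also had arrays more than 1 log2 unit apart. CBLN2, SYTL2 and DEGS2 were detected on only 1 array of replicate 2, so their differences rest partly on undetected signal. ATP12A, a proton and potassium pump, was detected in replicate 1 and undetected in replicate 2 (at least 4.82-fold lower). So were PKIB, an inhibitor of protein kinase A (at least 3.64-fold), the adhesion protein HEPACAM (at least 3-fold) and the tetraspanin TSPAN8 (at least 2.78-fold). HEPACAM was detected on no other array of the set, so it passed the detection filter through replicate 1 alone.

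Glucocorticoid-induced genes, several of which the androgen receptor also induces, were described because LNCaP-1F5 carries both receptors. Of 22 measured, 15 were higher in replicate 2 and 2 lower, with a median of 0.76 (0.69 with 3 undetected members at their bounds, 1 of them, CRISPLD2, detected in the DHT titles alone). FKBP5, SGK1, ERRFI1, ZBTB16, TSC22D3 and TSC22D1 stand on this list and on the androgen list. ERRFI1, a feedback inhibitor of EGF receptor signalling, read 9.41 and 9.68 in replicate 1 and 11.31 and 11.30 in replicate 2. NFKBIA, the inhibitor of NF-kappaB, read 10.43 and 10.34 against 12.07 and 12.12. Both genes had arrays within 0.3 log2 units of each other inside a replicate number. The 2 lower members were the metallothioneins MT2A and MT1X. MT2A, which binds zinc and copper, differed by -1.31 ± 0.13 and its relative MT1X by -1.04 ± 0.14.

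Polyamine synthesis was divided by enzyme. ODC1, ornithine decarboxylase, which commits ornithine to the pathway, was bright on all 4 arrays and read 13.07 and 13.04 in replicate 1 and 14.89 and 14.96 in replicate 2, a difference of 1.87 ± 0.10. SAT1, which acetylates polyamines for export and breakdown, read 9.60 and 9.17 against 12.08 and 12.07, a difference of 2.69 ± 0.15. SMS, spermine synthase, differed by 1.21 ± 0.13. Together with AMD1 (0.63) these were 4 of 12 measured members, the other 8 were not called, and the median of the list was 0.28. The antizyme OAZ1 and its inhibitor AZIN1 read -0.16 and -0.22.

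Among enzymes that make, convert or conjugate androgens, 5 of 11 tested were higher and 2 lower, and 10 of the 11 were detected on a vehicle-titled array. HSD17B11, which oxidizes 17-beta-hydroxysteroids, read 7.64 and 7.31 in replicate 1 and 9.67 and 9.53 in replicate 2. CYP11A1, which cleaves cholesterol to begin steroid synthesis, was undetected in replicate 1 and at least 2.73-fold higher, and SRD5A1, a 5-alpha-reductase, read 0.20 and was not called. In sterol and fatty acid synthesis 10 of 31 members were higher and 2 lower, with a median of 0.20. ELOVL5, an elongase of polyunsaturated fatty acids, differed by 1.47 ± 0.20, FADS2, a desaturase, by 0.99 ± 0.14 and FASN, fatty acid synthase, by 0.49. The sterol enzymes HMGCS1 (0.06) and SQLE (-0.42) were not called.

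The secretory pathway was divided between called and uncalled genes. Of 28 chaperones and unfolded-protein-response genes of the endoplasmic reticulum, 14 were higher, 1 was lower (NUCB2, a calcium-binding protein, at -1.03) and 13 were not called, with a median of 0.41. CREB3L4, a membrane-bound transcription factor of prostate that is also on the androgen list, read 9.06 and 8.81 in replicate 1 and 10.77 and 10.60 in replicate 2. PDIA5, a disulfide isomerase, differed by 1.21 ± 0.15 and DNAJB9, a co-chaperone of BiP, by 1.29 ± 0.17, while BiP itself (HSPA5) was 0.83 higher. The count of 14 was 8 without the parental-titled array of replicate 1, 7 without that of replicate 2 and 8 without the siFoxA1-titled array of replicate 2.

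Of 27 amino acid and tRNA synthetase genes under the stress factor ATF4, 14 were higher and none lower, with a median of 0.40. TRIB3, a pseudokinase induced by ATF4, read 10.84 and 10.87 against 11.76 and 11.80, and SESN2, a leucine sensor, was undetected in replicate 1 and at least 1.66-fold higher. Of the synthetases, GARS1 (0.39) and YARS1 (0.45) were called higher. The others were not called, from EPRS1 at -0.22 to MARS1 at 0.40. That count of 14 was 3 without the parental-titled array of replicate 1, 8 without that of replicate 2 and 4 without the siFoxA1-titled array of replicate 2. Among 32 coat and cargo genes of traffic from the endoplasmic reticulum to the Golgi, 7 were higher and 25 were not called, led in size by the translocon subunit SSR3 (0.85), and leaving out any 1 vehicle-titled array left between 2 and 4.

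Few cell-cycle genes were called, beside shares over all genes tested of 6.81% higher and 5.82% lower. Counts this small cannot be set apart from these shares. In 32 genes of DNA replication and S phase 1 was higher and 3 lower, with a median of -0.29 against -0.03 over all genes tested. Their uncalled members ran from E2F2 at -0.89 to RFC3 at 0.24. In 38 mitotic genes 0 were called higher and 1 lower, with a median of -0.10. None of these calls was kept under every omission of 1 array: without the parental-titled array of replicate 2, both lists had 0 members called in either direction. The replication factor CDC45, for example, differed by -0.73 ± 0.22 over the 4 arrays. CDKN1A, the p21 inhibitor of cyclin-dependent kinases, differed by 0.06 and the mitotic kinase AURKA by 0.04.

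**Figure D3:**
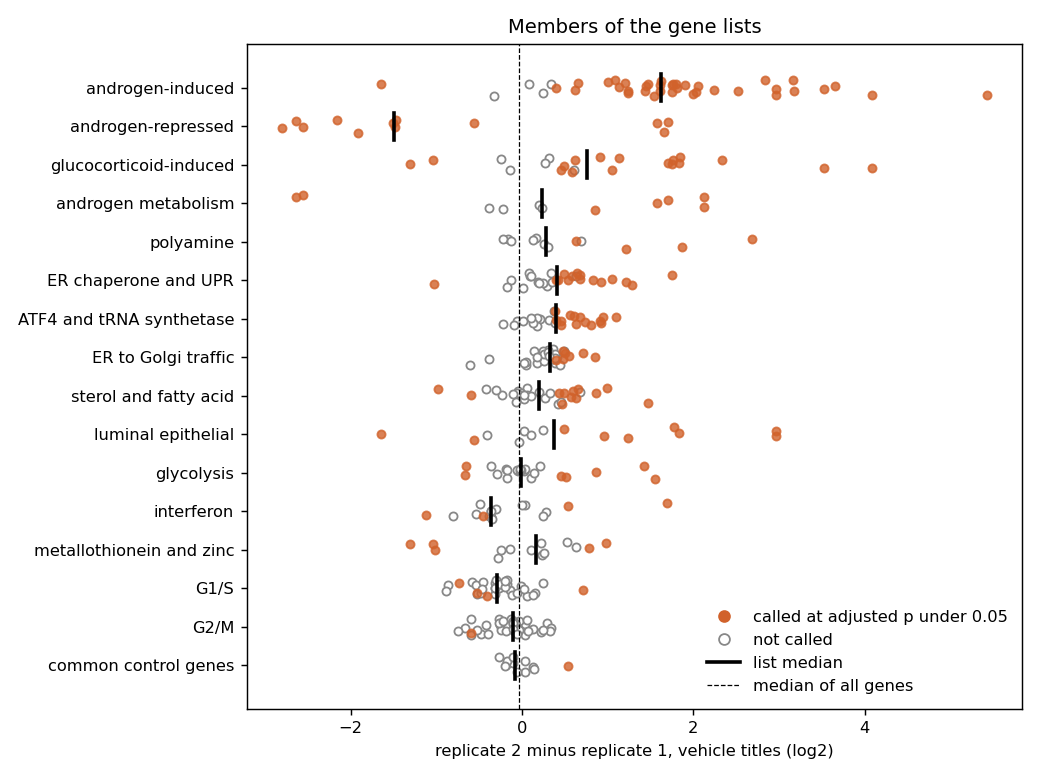
Difference between replicate 2 and replicate 1 of the vehicle titles (log2, horizontal axis) for each measured member of 16 gene lists (rows, with random vertical spread), undetected members at their fitted value. Filled points were called, open points were not, thick bars are list medians and the dashed line is the median of all genes (-0.03); the androgen-induced list has its median at 1.62 and the androgen-repressed list at -1.49.

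For the lists of this paragraph, the shares over all genes tested were 6.81% higher and 5.82% lower. Counts of 1 or 2 members in such short lists cannot be set apart from these shares. In glucose uptake and glycolysis 5 of 22 members were higher and 2 lower, with a median of -0.01. PFKFB2, which makes the activator of phosphofructokinase, differed by 1.55 ± 0.23 and the glucose transporter SLC2A3 by 1.43 ± 0.23, while LDHA read -0.02. Leaving out 1 array left 2 higher without the parental-titled array of replicate 1, and 3 without that of replicate 2 or without the siFoxA1-titled array of replicate 2. It left 1 lower without either parental-titled array or without the siFoxA1-titled array of replicate 1. Of 17 interferon-response genes tested, 15 were detected on a vehicle-titled array. By the fit 2 were higher and 2 lower (1 higher and 0 lower without either parental-titled array, and 1 lower without either siFoxA1-titled array), although IRF1, 1 of the lower, was detected on none of the 4 arrays. ISG20, an RNA exonuclease, read 7.96 and 7.98 against 9.53 and 9.79. Of 13 receptor partners 2 were higher, 1 lower and 10 not called. GRHL2, a grainyhead factor of epithelia, differed by 1.40 ± 0.19, the bZIP factor CEBPB by 0.61 ± 0.12 and the zinc-finger factor GATA2 by -0.80 ± 0.16, a call that GATA2 lost without the parental-titled array of replicate 2 (-0.55), while HOXB13, a homeobox factor of prostate, read 0.02. Among 14 chaperones and immunophilins of steroid receptors the only one called was FKBP5, and HSP90AA1 read -0.10. Of 5 measured genes of the insulin-like growth factor axis, IRS2, a docking protein of the insulin receptor, was 1.84 ± 0.23 higher and the binding protein IGFBP3 was undetected in replicate 2 and at least 1.49-fold lower. Of 12 common control genes, 11 were not called, ACTB and GAPDH differing by 0.03 and 0.04.

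The identity of the cells as luminal prostate cancer cells was checked against markers. Of 10 markers of luminal prostate epithelium, 9 had a probe and 7 were detected on all 4 arrays, with a summed log2 signal of 14.40 and 14.57 in replicate 1 and 15.25 and 15.11 in replicate 2. Linear signals were summed, so bright markers weigh most, and SLC45A3, also on the androgen-induced list, rose from 10.84 and 10.23 to 13.61 and 13.42. KRT18, KRT19 and KLK2 were also higher. EPCAM (12.91 and 13.39 against 13.52 and 13.26) was mixed, HOXB13 hardly differed and FOLH1 was lower. The cadherin CDH1 lay between 12.97 and 13.06 on all 4, and KRT8, a luminal keratin, read 9.99 and 10.10 against 11.81 and 11.84, so that 7 of 14 genes on the wider luminal list were higher and 2 lower (1 lower without the parental-titled array of replicate 1 or without either siFoxA1-titled array). Fewer cells of a type and less RNA per cell cannot be told apart in such bulk samples. The basal keratins KRT5, KRT14 and KRT15 and the neuroendocrine markers CHGA, CHGB and SYP were detected on none of the 4 arrays. On the wider neuroendocrine list, however, 2 of 12 genes were detected on a vehicle-titled array. ENO2 averaged 8.99 in replicate 1 and 8.33 in replicate 2, and TUBB3 averaged 8.63 and 8.44. Of 7 mesenchymal markers VIM alone was detected, at 6.57 and 7.22 in replicate 1 and 6.79 and 6.19 in replicate 2, and the summed signal of the 7 was 8.22 and 8.35 against 8.38 and 7.92. On the wider mesenchymal list 6 of 19 genes were detected on a vehicle-titled array. Among them, ACTA2 (means 7.24 and 8.13) and TAGLN (7.62 and 7.18) were detected on all 4.

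Of the 6 blood and endothelial markers, VWF, which carries clotting factor in endothelium, was detected on both arrays of replicate 2 (7.17 and 6.83) and on neither of replicate 1, at least 2.19-fold higher, and PECAM1 on 1 array. PTPRC, CD3D, CD14 and HBB were detected on none, and the summed signal of these markers was 7.66 and 7.52 in replicate 1 and 8.24 and 8.33 in replicate 2. SNAI2, a repressor of epithelial genes on the wider mesenchymal list, was undetected in replicate 1 and read 6.70 and 6.79 in replicate 2, at least 1.84-fold higher. The mean raw signal of the arrays overlapped between replicate numbers, at 528.1 and 457.7 against 516.1 and 509.8, while slightly more probes were detected in replicate 1, 25.3% and 26.4% against 24.7% and 24.4%. The part of other cells or of detection in the differences was not tested.

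The same contrast was tested on the 4 arrays with DHT titles, which lie outside the comparison. That androgen-induced genes did not follow the hormone title was known when the comparison was chosen. P-values for the DHT titles are therefore a description and no independent support. The DHT titles share no array with the vehicle titles, but they share the chip, the normalization and the estimate of the spread. There 772 genes (8.56% called) were higher in replicate 2 and 884 (9.8% called) lower at an adjusted p under 0.05 in limma. Of the 614 genes higher in the vehicle titles, 264 were also higher in the DHT titles (43% of the vehicle genes and 34.2% of the DHT genes), 16 were lower and 334 were not called. Of the 525 lower genes, 250 were also lower (47.6% and 28.3%), 17 were higher and 258 were not called. The median difference of the 614 genes was 0.84 in the vehicle titles and 0.39 in the DHT titles, and that of the 525 genes -0.81 and -0.50; the first value of each pair is that on which the genes were picked.

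Androgen-induced genes followed the replicate number in the DHT titles too. Of the 41 measured, 27 were higher in replicate 2 and 1 lower, with a median of 1.04. FKBP5 read 8.21 and 7.76 on the arrays titled DHT replicate 1, parental title first, and 13.16 and 12.97 on those titled DHT replicate 2 (difference 5.08 ± 0.16, limma adjusted p = 1.06e-17). Its levels on the arrays titled DHT replicate 1 were thus close to those titled vehicle replicate 1. PGC read 6.47 and 6.26 against 11.21 and 11.18 (4.83 ± 0.20, limma adjusted p = 3.59e-15), and MYBPC1 was undetected in replicate 1 and read 9.64 and 9.37 in replicate 2 (at least 10.3-fold higher, limma adjusted p = 7.22e-14). ODC1 differed by 1.80 ± 0.10 (limma adjusted p = 9.17e-13). Of the 12 androgen-repressed genes, 9 were lower and 2 higher, with a median of -1.31. UGT2B17 read 8.87 and 8.46 against 6.81 and 6.62 (difference -1.95 ± 0.18, limma adjusted p = 5.66e-09), so both replicates of the DHT titles lay below both of the vehicle titles for this gene.

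**Figure D4:**
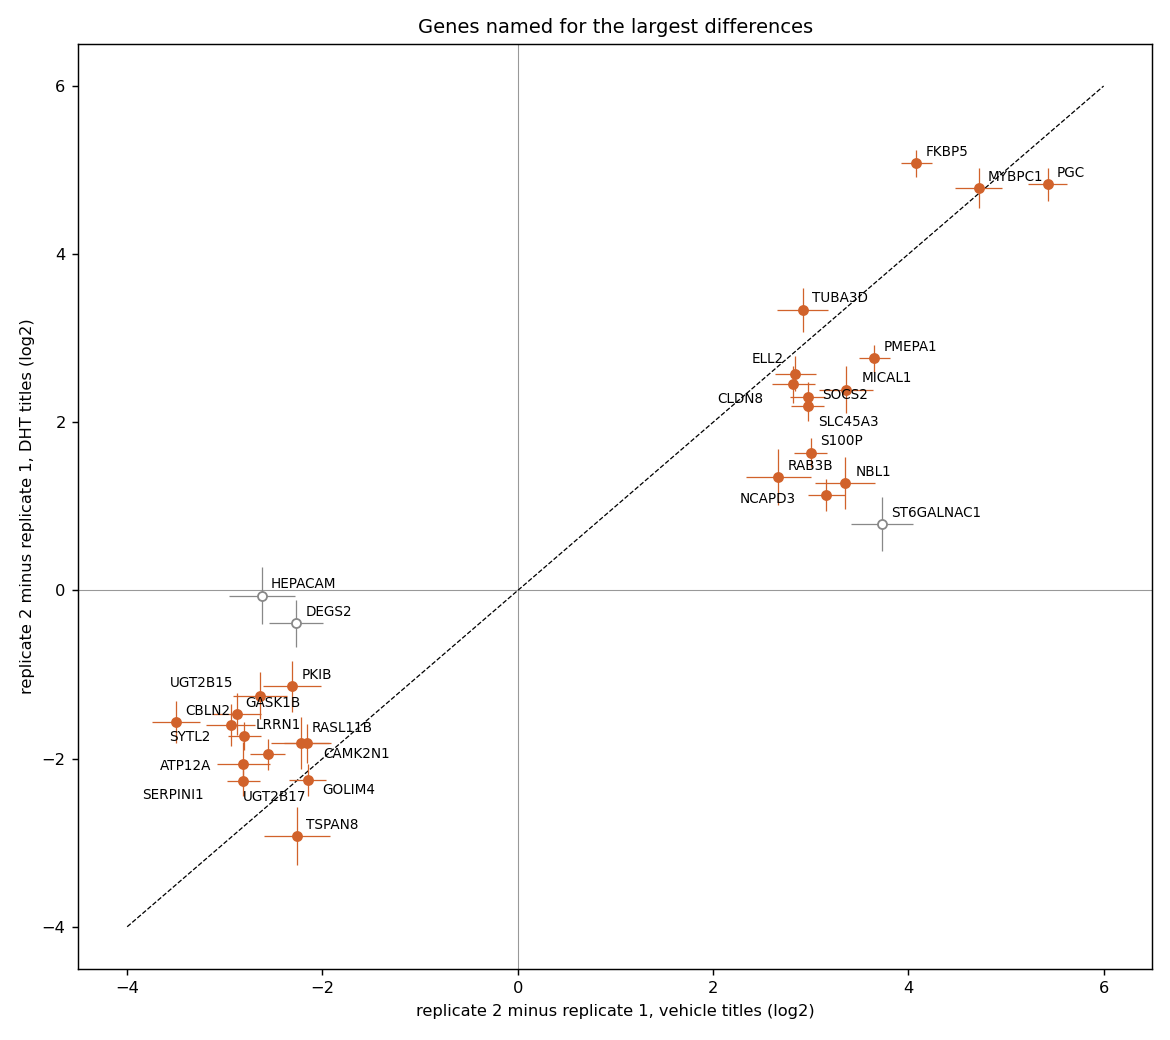
Difference between replicate 2 and replicate 1 (log2) in the DHT titles (vertical axis) against that in the vehicle titles (horizontal axis) for the 30 genes named for the largest differences or bounds in the vehicle titles. Genes undetected in a replicate number stand at their fitted value, bars are standard errors, filled points were called in the DHT titles, open points (ST6GALNAC1, HEPACAM and DEGS2) were not, and the dashed line marks equal differences.

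The difference between the titles was itself tested, and 507 of 9020 genes (5.62% called) had a replicate difference that was not the same in DHT and vehicle titles. Among the 614 higher genes 155 did, with a smaller difference in the DHT titles in 123 and a larger one in 32. Among the 525 lower genes 83 did, smaller in 62 and larger in 21. This test uses the vehicle values by which the genes were picked, so for them it is a description, and no p-value of it is given per gene. ST6GALNAC1 was undetected on all 4 arrays with DHT titles, at 4.51 to 5.70. HEPACAM was likewise undetected at 4.74 to 5.15 there, and VWF at 4.74 to 5.23. These 3 genes were thus detected on 2 of the 8 arrays only, those of 1 replicate number of the vehicle titles. Because the filter required detection on 2 or more arrays, they passed it through that group alone. Their pattern is therefore partly set by the filter.

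For 4 lists the counts in the DHT titles are given beside those above, with the difference between titles tested gene by gene only. Over all genes tested the shares were 8.56% higher and 9.8% lower in the DHT titles, and 5.62% differing between titles. Counts near these shares say nothing particular about a list. In the DHT titles 3 of 28 chaperone genes were higher and 3 lower (median -0.01), with 5 differing between titles. For PDIA5 the replicate difference was -0.03 there. In the list of traffic to the Golgi 3 of 32 were higher and 1 lower (median 0.05), with 1 differing between titles. Of 27 ATF4 genes 1 was higher and 4 lower (median -0.10), with 5 differing between titles, among them TRIB3 at -0.04. Of the glucocorticoid-induced genes 18 of 22 were higher and 2 lower in the DHT titles, with a median of 1.59 against 0.76, and 12 differed between titles. ERRFI1, for example, differed by 2.50 in the DHT titles and 1.76 in the vehicle titles. ACTA2, a smooth-muscle actin, read 7.28 and 7.51 against 11.56 and 11.12 in the DHT titles, and 7.29 and 7.18 against 8.05 and 8.22 in the vehicle titles. SNAI2 read 5.60 and 5.53 against 10.43 and 10.16 in the DHT titles, where it was undetected in replicate 1 and at least 17.7-fold higher in replicate 2.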

How the data were processed

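Groups and replicate numbers came from the sample titles. Mean bead signals as linear intensity, not normalized, and a detection p-value per probe were deposited, per the file headers, exported from BeadStudio per the submitters' processing notes. In 353 of 390424 detection cells a p of 1 carried a misplaced separator and was set to 1. A normalized intensity table was also deposited by the authors (33.4% of values below 0, scale and method not given in the sources used here), used for probe names and as an alternative. All 48794 of its rows were joined to scanner rows by rank over the 8 arrays. Of these, 28090 probes had 1 gene symbol, 13 several and 20691 none.

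Signals were background-corrected, quantile normalized over the 8 arrays of the DHT set and put on the log2 scale (limma 3.58.1, neqc, offset 16), and this log2 scale was computed here from the deposited intensities. Kept were 13094 probes detected at p under 0.01 on 2 or more arrays, and the brightest single-symbol probe stood for a gene. Y-linked genes and XIST were left out. A model of 4 cells (hormone title by replicate number, 4 residual degrees of freedom) was fitted in R 4.3.3 with a variance trend and Benjamini-Hochberg adjustment, two-sided. P-values measure the spread between arrays titled parental and siFoxA1, which were pooled. The script was tested on simulated data. Named were FOXA1, the 10 largest called changes each way, the 5 largest bounds each way and the 3 leading members of each list; other list members named were chosen after their values were seen. Members and lists were chosen with earlier results of these data known. The number of arrays limits the precision. Alternatives changed the background correction, scaling, filter, probe choice, variance trend, siRNA term and arrays.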

Additional observations from a re-analysis of the deposited data

Results flagged for a closer look

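For 36 of the named genes the replicate difference in the DHT titles was not the same as that in the vehicle titles (limma adjusted p under 0.05 for the difference, each gene tested on 8 arrays). All were named by their differences in the vehicle titles, as the largest of all genes or as leading members of a list, and the test uses those same values. For ST6GALNAC1, NBL1, UGT2B15, HEPACAM, KLK2, SNAI2, VWF and IRF1, which were undetected on some pairs of arrays, the value rests on fitted levels near background. Values are the replicate difference in the DHT titles minus that in the vehicle titles, on the log2 scale.

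Among androgen-responsive and luminal genes the value was 1 for FKBP5, -0.88 for PMEPA1, -2.03 for NCAPD3, -1.35 for S100P, -0.79 for SLC45A3 and -1.24 for KLK2. For ST6GALNAC1 it was -2.94 and for NBL1 -2.08. Among genes lower in replicate 2 it was 1.93 for CBLN2, 1.34 for SYTL2, 1.41 for GASK1B, 1.08 for LRRN1, 1.88 for DEGS2, 1.38 for UGT2B15, 2.56 for HEPACAM and 1.41 for ACKR3.

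In metabolism the value was -1.22 for HSD17B11, -1.53 for SAT1, -1.07 for SMS, 1.21 for ELOVL5 and -1.12 for PFKFB2. In the secretory and stress lists it was -1.24 for PDIA5, -0.89 for DNAJB9, -0.62 for SSR2 and -0.96 for TRIB3. Of the cell-cycle genes TK1 had 0.98, CDC25A 1.43 and CCND3 0.74. The remaining values were 0.74 for ERRFI1, -1.86 for ISG20, -1.67 for IRF1, -0.71 for MT2A, -0.99 for SLC30A7, 2.66 for SNAI2, 3.05 for ACTA2 and -2.07 for VWF.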

How the results depend on the processing

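No paired analysis was possible because the comparison is between the replicate numbers themselves, which therefore cannot be a block; with the siRNA title as a term in the fit instead, 1285 genes were called. The 1139 genes called in the vehicle titles became 678 to 751 when 1 vehicle-titled array was left out, where fewer arrays carry the estimate, and 819 to 1285 under the other alternatives. The 1656 called in the DHT titles became 1126 to 1212 without 1 array. The 507 that differed between titles became 338 to 410 without 1 array, 333 with median scaling and 300 without a variance trend. The cause of the latter 2 was not tested. The siRNA titles differed in 0 genes, and in 4 with median scaling. No named gene that was called reversed in any alternative run. Over all named genes and alternatives, 1182 values in the vehicle titles were counted as unchanged, 68 lost their call and 7 gained one. In the DHT titles these numbers were 1098, 65 and 2. An uncalled gene that changed direction was counted as unchanged. Losses without 1 array included CDC45, TK1, CDC25A, CDCA5, HLF, IRF1 and B2M in the vehicle titles. Dim probes, near background on the arrays of 1 replicate number, give bounds only.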
